A study of Mus musculus with 38 samples.

Results

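The enzymes described here make serine and glycine and load their carbon onto folate. They are 10 genes of 29564 in the tables, in left ventricles of 38 mice with 1 RNA-seq library each: Gcat and Tdh (threonine breakdown), Phgdh, Psat1 and Psph (serine synthesis), Shmt1 and Shmt2 (serine to glycine), and Mthfd1, Mthfd2 and Mthfd1l (folate carriers). They were chosen by name from the pathway after Gcat had been seen among the strongest falls in vehicle-treated HFpEF hearts against non_failing hearts. That comparison is therefore given as a description of these genes, with no p-value or count of calls.

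All mice were wild-type C57BL6. The groups were non_failing (n = 8), HFpEF+Veh (n = 8), HFpEF+TYA-018 (n = 11) and HFpEF+SGLT2i (n = 11). Heart failure with preserved ejection fraction (HFpEF) was induced with a high-fat diet and L-NAME, an inhibitor of nitric oxide synthase. The labels give vehicle for the first 2 groups, TYA-018, an inhibitor of the deacetylase HDAC6, for the third, and empagliflozin, an inhibitor of the glucose transporter SGLT2, for the fourth. The series title gives 3 months of treatment. The labels and the methods differ on the sex of the mice and on the length of treatment, and ages are not given in the labels. A change of diet, L-NAME and disease was shared by all 3 HFpEF groups, so these cannot be told apart. Every library came from whole tissue, where fewer cells of a type and less RNA per cell cannot be told apart.

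In cells, serine is made from a glycolytic intermediate by Phgdh, Psat1 and Psph in turn. The hydroxymethyltransferases Shmt1, in the cytosol, and Shmt2, in the mitochondrion, split it into glycine and a one-carbon unit on folate. Mthfd2 and Mthfd1l carry these units in the mitochondrion and Mthfd1 carries them in the cytosol, where they serve the synthesis of purines and thymidylate. Gcat and Tdh form the mitochondrial route from threonine to glycine. Several of these genes are known targets of ATF4, a transcription factor of the integrated stress response. Mthfd2 is known for its expression in embryonic and proliferating tissue and low levels in most adult organs.

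Promoter windows were read for the 2 members with the widest separation between groups in these libraries. Each runs from 250 bases before to 50 bases after the transcription start in RefSeq (GRCm38.p6). The Gcat window lies at chr15:79030624-79030923 on the plus strand. The Mthfd2 window lies at chr6:83317555-83317854 on the minus strand. Capitals mark the E-box CACGTG, a palindrome bound by bHLH factors, which is the same on both strands.
Gcat: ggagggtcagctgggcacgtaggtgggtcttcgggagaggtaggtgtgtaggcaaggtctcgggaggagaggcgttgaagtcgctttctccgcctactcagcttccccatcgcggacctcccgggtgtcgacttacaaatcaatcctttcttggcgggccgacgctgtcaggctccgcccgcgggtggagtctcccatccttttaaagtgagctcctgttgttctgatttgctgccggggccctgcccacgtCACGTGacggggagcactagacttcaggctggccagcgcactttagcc
Mthfd2: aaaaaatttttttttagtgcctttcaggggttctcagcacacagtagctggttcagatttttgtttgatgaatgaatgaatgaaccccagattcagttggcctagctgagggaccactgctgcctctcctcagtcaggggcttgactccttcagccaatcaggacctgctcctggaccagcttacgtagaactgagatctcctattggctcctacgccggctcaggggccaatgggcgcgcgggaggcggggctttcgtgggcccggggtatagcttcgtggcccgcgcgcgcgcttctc

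The E-box of Gcat begins at base 253 of the window, base 3 of the transcript. A window was found for 9 of the 10 members, with 10 windows in all as Psat1 has a pair. The E-box was in 1 of the 10 windows and in 7.15% of all 32851 windows of this length. The motif TGATGNAA, a response element of C/EBP and ATF factors, was searched on both strands and was in 0 of the 10 windows and in 3.97% of all windows. These matches describe letters in this window only.

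The libraries held between 21.5 and 59.3 M estimated counts (M stands for 1000000), with a median of 29.5 M, and group medians between 28.8 and 29.8 M. Levels below are in TPM (transcripts per 1000000, scaled per length), and fold changes come from the counts. A vehicle library, HFpEF+Veh V2523, stood apart with high liver transcripts, and another, V2532, with skeletal muscle transcripts (given with Shmt2 and Mthfd1). The summed level of 20 hepatocyte markers was 3416 CPM (counts per 1000000) in V2523, against 26.8 to 81.5 CPM in the other vehicle libraries. The sum was 62.6 to 598 CPM in non_failing, 11.9 to 41.2 CPM in HFpEF+TYA-018 and 17.9 to 48.2 CPM in HFpEF+SGLT2i, so the non_failing hearts also held more of these transcripts than both drug groups. All 20 markers were highest in V2523 among the vehicle libraries. The 7 cardiomyocyte markers summed to between 21050 and 40350 CPM in all 38 libraries. Their medians were 36040 CPM in non_failing, 31290 CPM in HFpEF+Veh, 33670 CPM in HFpEF+TYA-018 and 31430 CPM in HFpEF+SGLT2i. The medians of 6 fibroblast markers were 471, 566, 464 and 514 CPM in the same order. The medians of 4 erythroid markers were 1796, 2927, 3875 and 2058 CPM, with 13440 CPM in HFpEF+Veh V2529. HFpEF+SGLT2i V2571 had the lowest cardiomyocyte sum of all libraries and the highest sum of 6 endothelial markers, 1416 CPM. In its group it held the lowest Gcat (1.69 TPM) and Shmt1 (1.81 TPM), with Mthfd2 at 3.14 TPM. The part of these markers in the results was not tested. Values against vehicle for Gcat, Shmt1 and Mthfd1, in which V2523 was the highest vehicle library, are given with and without it.

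Gcat, the ligase that turns the product of Tdh into glycine, was lower in every HFpEF group than in non_failing hearts. Its levels ranged from 3.30 to 5.68 TPM in non_failing with a median of 4.32, and from 1.59 to 2.89 TPM in HFpEF+Veh with a median of 2.09. They ranged from 1.91 to 3.01 TPM with a median of 2.23 in HFpEF+TYA-018, and from 1.69 to 2.72 TPM with a median of 2.33 in HFpEF+SGLT2i. None of the 30 HFpEF libraries reached the lowest non_failing library, and the 3 HFpEF groups overlapped each other. Gcat lies on chromosome 15 (chr15:79030874-79038353, plus strand, GRCm38). A second model of the same symbol runs into Galr3, and 11.4% of the 31-base words of the Gcat transcripts also occur there.

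**Figure D1:**
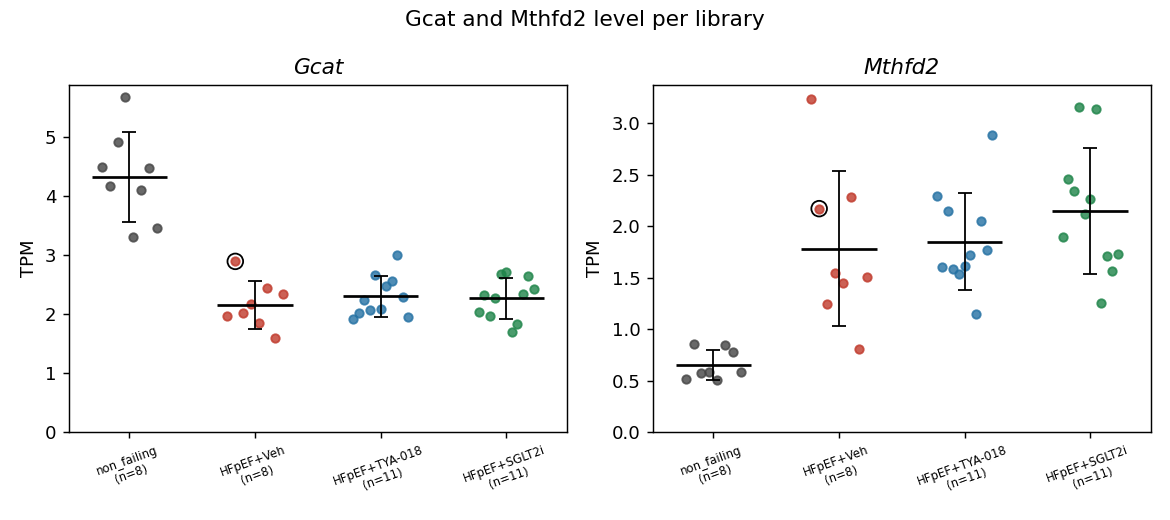
Levels of Gcat and Mthfd2 in TPM (y axis) in each of 38 libraries by group (x axis). Points are libraries, bars the mean and the error bars the SD, and the ring marks HFpEF+Veh V2523. All non_failing points of Gcat (3.30 TPM and above) lie over the HFpEF points, and those of Mthfd2 lie under the points of both drug groups.

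The mean Gcat level was 4.33 ± 0.766 TPM in non_failing (SD, n = 8), 2.16 ± 0.403 TPM in HFpEF+Veh (SD, n = 8), 2.30 ± 0.344 TPM in HFpEF+TYA-018 (SD, n = 11) and 2.27 ± 0.349 TPM in HFpEF+SGLT2i (SD, n = 11). As a description, the log2 fold change of HFpEF+Veh against non_failing was -1.15 (SE 0.11), in the same direction in 8 of 8 libraries. Such counts, here and below, are of libraries whose log2 CPM lay on that side of the other group's mean. The drug groups were compared with the same 8 control hearts that entered the choice of genes, so their values for Gcat are a description as well. The log2 fold change was -0.89 (SE 0.10, 11 of 11 libraries) in HFpEF+TYA-018 and -0.94 (SE 0.10, 11 of 11 libraries) in HFpEF+SGLT2i.

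Liver transcripts moved with the groups, and their values were read beside Gcat. The vehicle library high in liver transcripts, V2523, had the highest Gcat level of its group, 2.89 TPM, below every non_failing library. The non_failing library with the fewest liver transcripts, V2510 with 62.6 CPM, had 3.46 TPM. The one with the most, V2504 with 598 CPM, had 5.68 TPM.

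Against vehicle, Gcat was not called in either drug group. The log2 fold change was 0.26 (interval 0.05 to 0.48, edgeR adjusted p = 0.182, 10 of 11 libraries) for HFpEF+TYA-018. It was 0.20 (interval -0.01 to 0.42, adjusted p = 0.528) for HFpEF+SGLT2i. Without V2523 these were 0.33 (adjusted p = 0.0892) and 0.27 (adjusted p = 0.355). Between the 2 drugs it was 0.06 (interval -0.14 to 0.26, adjusted p = 0.877). All intervals are 95%.

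Tdh, the dehydrogenase that opens this route, was close to silent. It had 2 counts in all, 1 in HFpEF+Veh V2521 and 1 in HFpEF+SGLT2i V2573, and 0 in the other 36 libraries. A count of 0 allows up to 3 counts, or 0.0506 to 0.14 CPM from the deepest to the shallowest library, by counting error only. Tdh was not tested.

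Mthfd2, the mitochondrial dehydrogenase and cyclohydrolase of folate, was higher in every HFpEF group. It ranged from 0.508 to 0.851 TPM in non_failing with a median of 0.585. It ranged from 0.807 to 3.23 TPM in HFpEF+Veh (median 1.53), from 1.15 to 2.89 TPM in HFpEF+TYA-018 (median 1.72) and from 1.26 to 3.16 TPM in HFpEF+SGLT2i (median 2.12). A single vehicle library, V2530, was within the non_failing range, and all libraries of both drug groups were above it. The gene lies at chr6:83305691-83325908 on the minus strand in GENCODE M21. The RefSeq start used for the window above lies inside that span, which another transcript extends upstream.

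The description for HFpEF+Veh was a log2 fold change of 1.32 (SE 0.21), in the same direction in 8 of 8 libraries. In the drug groups, Mthfd2 rose by 1.54 (SE 0.20, edgeR adjusted p = 2.13e-06, 11 of 11 libraries) with TYA-018 and by 1.74 (SE 0.20, adjusted p = 1.69e-07, 11 of 11 libraries) with empagliflozin, both against non_failing on the log2 scale. The values were 0.95 and 1.12 on the log2(TPM + 1) scale, the lowest of the settings tried. Tests of members against non_failing use the 8 control hearts in which the fall of Gcat was seen, so they are not independent of the choice of genes. Against vehicle the differences were 0.22 (interval -0.16 to 0.60, adjusted p = 0.571) and 0.42 (interval 0.04 to 0.80, adjusted p = 0.433). The drugs differed by -0.20 (interval -0.55 to 0.15, adjusted p = 0.693), TYA-018 minus empagliflozin. No 31-base word of Mthfd2 was found in another gene.

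In the comparison of HFpEF+Veh with non_failing, 3.15% of 13765 genes were called, at an adjusted p under 0.05. Of the 8 tested members other than Gcat, 1 was called in HFpEF+TYA-018 against non_failing, Mthfd2, where 7.39% of all genes were called. In HFpEF+SGLT2i 2 of 8 were called, Mthfd2 and Psat1, where 6.45% of all genes were called. These comparisons share their 8 control hearts with the one that was used to choose the genes, so nothing is read from the counts. Against vehicle, 0 of 9 members were called by edgeR with TYA-018, where 1.93% of all genes were, and 0 of 9 with empagliflozin, where 0.850% were. At an unadjusted p under 0.05 there were 2 members in each, and DESeq2 and limma also called 0 members in both. Without V2523, 2 genes of all tested were called with empagliflozin in place of 117. In the same fit 1 of 9 members, Shmt1, was called with TYA-018, where 190 of 13765 genes were called. Between the drugs, 0 of 9 members and 0% of all genes were called, with 0 members at an unadjusted p under 0.05, and DESeq2 and limma called 0 members. DESeq2 called 185 of all genes there.

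**Figure D2:**
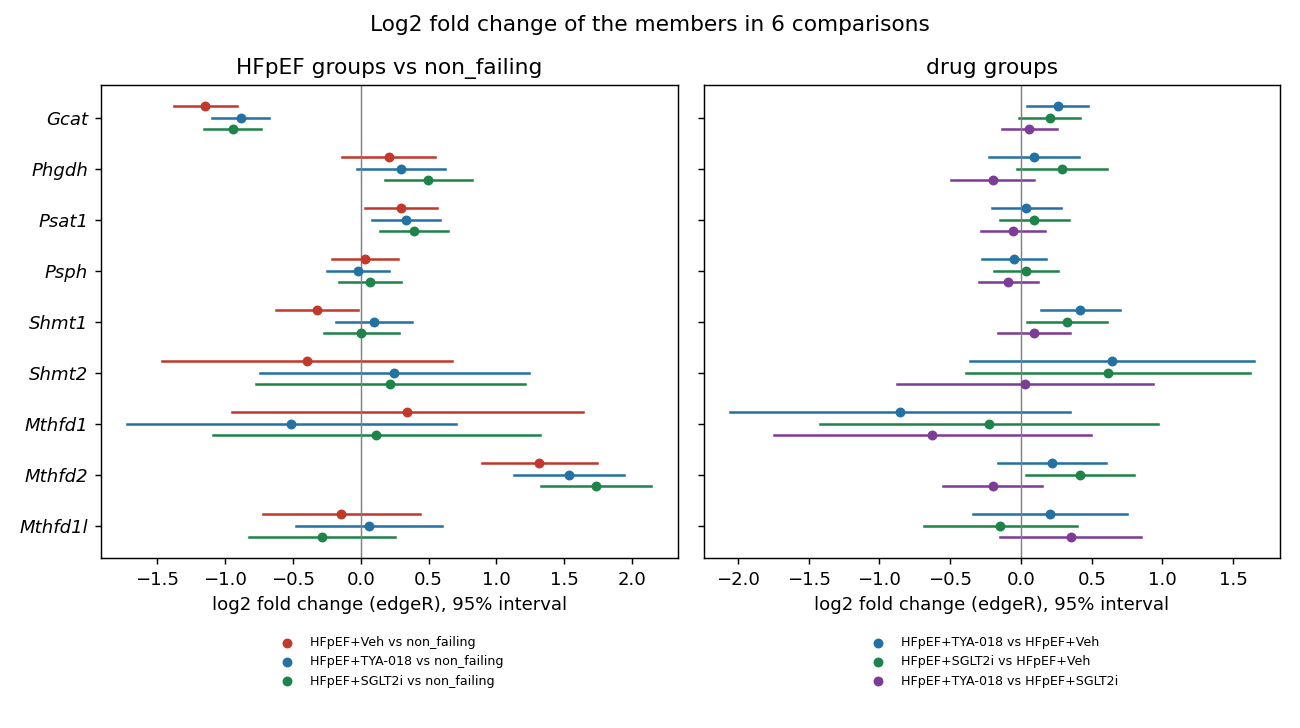
Log2 fold change (x axis) of the 9 tested members in 6 comparisons from edgeR, with 95% intervals as lines. The left panel sets the HFpEF groups against non_failing and the right panel sets the drugs against vehicle and each other. Gcat and Mthfd2 stand apart on the left, at -1.15 and 1.32 for vehicle, and the intervals of Shmt2 and Mthfd1 are wide.

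Of the 3 serine synthesis enzymes, Psat1 was called higher in HFpEF+SGLT2i than in non_failing hearts, and Phgdh was just short of the threshold. Psat1, the aminotransferase, ranged from 0.917 to 1.73 TPM in non_failing (median 1.36) and from 1.58 to 2.50 TPM in HFpEF+Veh (median 1.83). It ranged from 1.25 to 2.36 TPM in HFpEF+TYA-018 (median 1.59) and from 1.56 to 2.22 TPM in HFpEF+SGLT2i (median 1.75). In HFpEF+Veh 6 of 8 libraries were above the highest non_failing library, and so were 6 of 11 in HFpEF+SGLT2i, but the groups overlapped. On counts it rose by 0.39 (SE 0.12, edgeR adjusted p = 0.0454, 11 of 11 libraries) in HFpEF+SGLT2i on the log2 scale. That call was made in 25 of 38 fits that left out a library and in 5 of 8 other settings, with p between 0.0232 without V2507 and 0.113 without V2504. In HFpEF+TYA-018 the value was 0.33 (SE 0.12, adjusted p = 0.0874, 11 of 11 libraries). As a description it was 0.30 in HFpEF+Veh.

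Against vehicle, Psat1 was 0.04 (interval -0.21 to 0.28) with TYA-018 and 0.10 (interval -0.15 to 0.34) with empagliflozin. With TYA-018 it turned to -0.15 on the log2(TPM + 1) scale and to -0.08 with a length offset. The effective length behind TPM had a median of 1283 bases in HFpEF+Veh and of 1402 bases in HFpEF+TYA-018, and whether this reflects other transcripts of the gene was not tested.

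Phgdh, the first enzyme, ranged from 0.422 to 0.829 TPM in non_failing (median 0.532) and from 0.509 to 1.03 TPM in HFpEF+Veh (median 0.628). It ranged from 0.479 to 0.975 TPM in HFpEF+TYA-018 (median 0.607) and from 0.563 to 1.01 TPM in HFpEF+SGLT2i (median 0.773). The groups overlapped. The log2 fold change of HFpEF+SGLT2i against non_failing was 0.50 (SE 0.16, edgeR adjusted p = 0.0515, 11 of 11 libraries), not past the threshold. It passed in 9 of 38 fits that left out a library, without V2523 among them (p = 0.0456), and in 2 of 8 other settings. Against vehicle it was 0.29 (interval -0.03 to 0.61). Of its 31-base words 55.8% occur in 23 other genes, with Gm7901 holding the most, while its counts were not whole numbers in 4 of 38 libraries. How many of its reads could belong to those genes was not tested.

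Psph, the phosphatase that ends the route, differed little. It ranged from 1.13 to 2.09 TPM in non_failing (median 1.89), 1.39 to 2.55 TPM in HFpEF+Veh (median 1.96), 1.28 to 2.16 TPM in HFpEF+TYA-018 (median 1.77) and 1.49 to 2.46 TPM in HFpEF+SGLT2i (median 1.91). Its log2 fold changes were between -0.09 and 0.07 in the 6 comparisons. Cct6a overlaps it on the other strand.

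**Figure D3:**
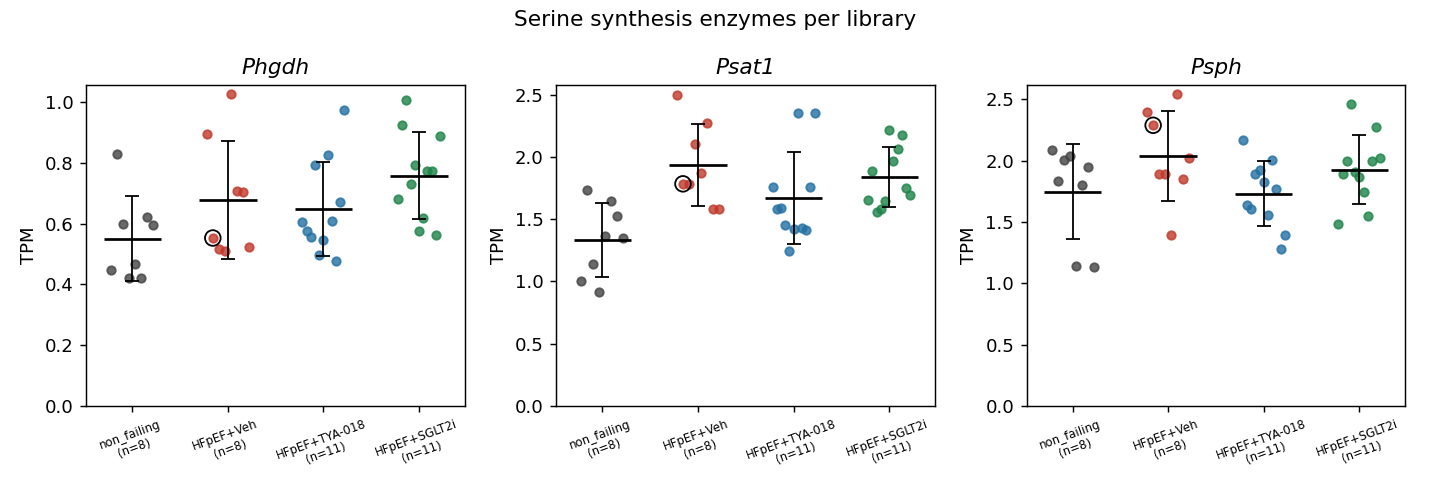
Levels of Phgdh, Psat1 and Psph in TPM (y axis) per library by group (x axis), with mean and SD, and a ring on HFpEF+Veh V2523. All groups overlap in each panel, and the medians of Psat1 are 1.36 TPM in non_failing and 1.59 to 1.83 TPM in the HFpEF groups.

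The hydroxymethyltransferase Shmt1 had its lowest median in vehicle hearts, the group that holds the library high in liver transcripts. It ranged from 2.69 to 3.93 TPM in non_failing (median 3.17) and from 2.03 to 5.28 TPM in HFpEF+Veh (median 2.52). It ranged from 2.25 to 4.18 TPM in HFpEF+TYA-018 (median 3.44) and from 1.81 to 5.36 TPM in HFpEF+SGLT2i (median 3.35). The highest vehicle value was that of V2523, and the other 7 vehicle libraries ended at 3.43 TPM. All groups overlapped. Shmt1 is abundant in liver.

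With all libraries, Shmt1 was 0.42 higher with TYA-018 than with vehicle on the log2 scale (SE 0.14, edgeR adjusted p = 0.0991, 11 of 11 libraries), not past the threshold. In TPM, V2551, V2555, V2559 and V2570 of HFpEF+TYA-018 were below the vehicle mean of 2.93 TPM. The log2 fold change was 0.199 to 0.419 over the 8 other settings. Without V2523 Shmt1 rose by 0.58 (SE 0.13, adjusted p = 0.0222), a call made in this one of 38 fits that left out a library and in 0 of 8 other settings. With empagliflozin it was 0.32 (interval 0.05 to 0.60, adjusted p = 0.380), and 0.48 without V2523 (adjusted p = 0.140). As a description, HFpEF+Veh was -0.32 against non_failing, and -0.48 without V2523. The drug groups differed from non_failing by 0.10 and 0.00, with intervals of -0.18 to 0.38 and -0.27 to 0.28.

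Shmt2 and Mthfd1 varied more between libraries of each HFpEF group than the other tested members. Shmt2 ranged from 0.796 to 3.93 TPM in non_failing (median 1.91), 0 to 4.91 TPM in HFpEF+Veh (median 1.76), 0.606 to 5.79 TPM in HFpEF+TYA-018 (median 2.12) and 0.715 to 6.27 TPM in HFpEF+SGLT2i (median 1.56). Its counts ran from 0 in V2527 to 880 in V2564. Mthfd1 ranged from 0.0850 to 1.93 TPM in non_failing (median 0.508), 0.265 to 2.87 TPM in HFpEF+Veh (median 0.566), 0 to 1.69 TPM in HFpEF+TYA-018 (median 0.343) and 0.109 to 2.71 TPM in HFpEF+SGLT2i (median 0.468). The groups overlapped for both.

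Their counts were not whole numbers in 37 and 35 of 38 libraries (tolerance 0.01), against 29 for Psph, 7 for Gcat and 2 for Mthfd2, so these values are estimates and not whole read counts. Of the 31-base words, 3.55% for Shmt2 occur in 1 other gene of GENCODE M21, Gm15544, and 0 of 4433 for Mthfd1 in the same direction. Why the counts were fractional was not tested. The standard errors were between 0.45 and 0.64 for these genes, and no comparison passed. Against vehicle, Shmt2 was 0.64 (interval -0.36 to 1.65) and Mthfd1 was -0.86 (interval -2.06 to 0.35) with TYA-018. With empagliflozin they were 0.61 (interval -0.39 to 1.62) and -0.23 (interval -1.42 to 0.97). These values moved with single libraries, and that of Mthfd1 with empagliflozin alone changed sign when a library was left out. At the low end of the fits leaving out a library, Shmt2 was 0.453 with TYA-018 and 0.38 with empagliflozin. Mthfd1 was -1.19 and -0.638 there. Without V2523, the highest vehicle library for Mthfd1, its value was -0.46 with TYA-018 and turned to 0.16 with empagliflozin. Without V2532, the next highest at 2.65 TPM, it was -0.415 and 0.212. V2532 was also the highest vehicle library for Shmt2, and without it Shmt2 was 1.11 with TYA-018 and 1.08 with empagliflozin. The 6 skeletal muscle markers summed to 120.0 CPM in V2532, against a vehicle median of 0.945 CPM and at most 5.70 CPM in the other groups. Their part in these values was not tested.

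**Figure D4:**
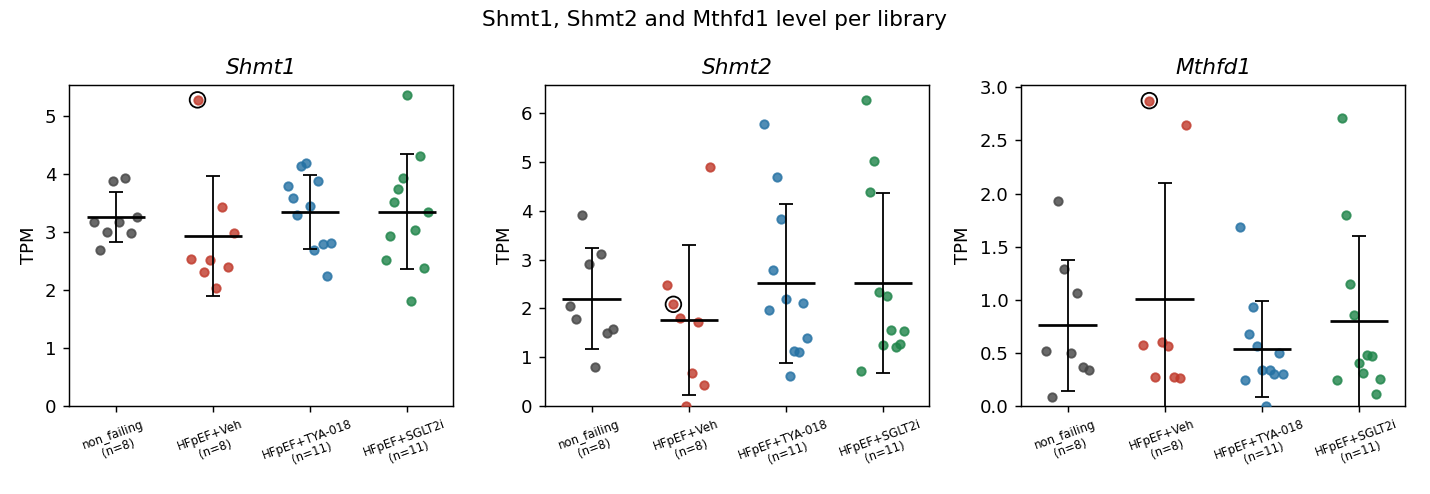
Levels of Shmt1, Shmt2 and Mthfd1 in TPM (y axis) per library by group (x axis), with mean and SD, and a ring on HFpEF+Veh V2523. The ringed library is the highest vehicle value of Shmt1 (5.28 TPM) and Mthfd1 (2.87 TPM), and single libraries stand at 0 for Shmt2 and Mthfd1.

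Mthfd1l, the mitochondrial synthetase, had the lowest mean of the tested members, 0.484 TPM over 38 libraries, against 3.24 TPM for Shmt1 at the top. It ranged from 0.134 to 1.12 TPM in non_failing (median 0.401), 0.324 to 0.725 TPM in HFpEF+Veh (median 0.436), 0.304 to 0.743 TPM in HFpEF+TYA-018 (median 0.538) and 0.262 to 0.583 TPM in HFpEF+SGLT2i (median 0.381). The non_failing group was the widest, and the groups overlapped. Its log2 fold changes were between -0.29 and 0.35 in the 6 comparisons, with no call.

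Steps of the pathway were set side by side across the 38 libraries after the group means were taken off, in 6 pairs. Shmt1 and Mthfd1 varied together (Pearson r = 0.512, permutation adjusted p = 0.0057, Spearman rho = 0.55, adjusted p = 0.00414, r = 0.48 without the 2 libraries farthest from the median). Without V2523 the Pearson r was 0.455 (adjusted p = 0.0314), and on the log2(TPM + 1) scale 0.424 (adjusted p = 0.0516). Within groups r was 0.518, 0.866, 0.51 and 0.304 in the order above. In HFpEF+Veh, V2523 and V2532 were the highest libraries for both genes. Shmt1 was at 10.37 and 6.878 CPM in them, and Mthfd1 at 8.634 and 8.593 CPM. V2532 was also the deepest vehicle library, with 57.7 M counts. The part of depth, and of the liver and skeletal muscle transcripts of these libraries, in the correlations was not tested. Phgdh and Psat1 had r = 0.408 (permutation adjusted p = 0.0268, rho = 0.364, adjusted p = 0.0568, r = 0.359 without the 2 libraries), with -0.179 in HFpEF+SGLT2i and 0.464 to 0.702 in the other groups. Phgdh and Psph had r = -0.417 (permutation adjusted p = 0.0268, rho = -0.338, adjusted p = 0.0638), which fell to -0.24 without the 2 libraries V2528 and V2570 and to -0.18 on the log2(TPM + 1) scale (adjusted p = 0.366). The other 3 pairs had permutation adjusted p-values of 0.149 to 0.88 for Pearson r and of 0.0568 to 0.795 for Spearman rho. The Spearman value of 0.0568 was that of Shmt2 with Mthfd2 (rho = 0.401, r = 0.335). Gcat and Tdh could not be set side by side.

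A list of 53 other genes of serine, glycine and folate metabolism was tested, of which 48 passed the filter on low counts. In HFpEF+TYA-018 against non_failing, 6 of 48 were called (12.5%, beside 7.39% of all genes), 1 higher and 5 lower, with a median of -0.0042 on the log2 scale beside 0.00521 over all genes. In HFpEF+SGLT2i 3 were called, all lower, which is 6.25% beside 6.45% of all genes. The called genes included Bhmt, Gnmt and Aldh1l1, liver enzymes of the methyl cycle and of folate, in both comparisons. Against non_failing, Gnmt fell by 1.48 (edgeR adjusted p = 0.00857) in HFpEF+TYA-018 and by 1.30 (adjusted p = 0.0222) in HFpEF+SGLT2i. Its levels were 1.93 to 5.96 TPM in non_failing, 0.496 to 1.58 TPM in HFpEF+TYA-018 and 0.835 to 1.95 TPM in HFpEF+SGLT2i. In HFpEF+Veh it was 11.0 TPM in V2523 and 0.641 to 1.73 TPM in the other libraries. Aldh1l1 fell by 1.28 (adjusted p = 0.00486) and 1.07 (adjusted p = 0.0203). Vehicle hearts without V2523 were also lower than non_failing hearts, by log2 fold changes of -1.56 for Gnmt and -1.36 for Aldh1l1, given as a description. Bhmt was at 0 in 8 of 11 and 5 of 11 drug libraries. These genes moved with the hepatocyte markers above, and their part in the result was not tested.

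Mtr, methionine synthase, fell by 0.42 (edgeR adjusted p = 0.0413) in HFpEF+TYA-018 against non_failing. Ahcyl1 rose by 0.16 (adjusted p = 0.0225) and Thnsl2 fell by 0.32 (adjusted p = 0.0439) in the same comparison. In HFpEF+Veh against non_failing, the comparison behind the choice of genes and so a description, 1 of 48 was past the threshold (2.08%, beside 3.15% of all genes), Mtr, and 6 were without V2523, Gnmt and Aldh1l1 among them, in a fit that called 619 of 13765 genes. Against vehicle, Bhmt alone was called with each drug (2.08%, beside 1.93% and 0.850% of all genes), at 13.7 TPM in V2523 and at most 0.661 TPM in the other vehicle libraries. Without V2523 Bhmt was called with TYA-018 (edgeR adjusted p = 0.0330) and not with empagliflozin (adjusted p = 0.309). Bhmt was at 0 in 5 of the 8 vehicle libraries, with a vehicle median of 0 TPM. The call without V2523 thus rests on few vehicle libraries with low levels, and no fall with TYA-018 is read from it. Between the drugs 0 of 48 were called by edgeR, with 3 at an unadjusted p under 0.05, and 0 by DESeq2 and by limma.

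A list of 20 genes of the integrated stress response held 18 that were tested. Atf5, a factor of that response, was higher in all HFpEF groups, by 0.28 in HFpEF+Veh as a description, 0.31 in HFpEF+TYA-018 (edgeR adjusted p = 0.00411) and 0.50 in HFpEF+SGLT2i (adjusted p = 6.64e-06) on the log2 scale against non_failing. Its levels were 33.1 to 46.3 TPM in HFpEF+SGLT2i and 24.9 to 33.9 TPM in non_failing. Gdf15, a secreted stress factor, was 1.28 higher in HFpEF+Veh than in non_failing as a description, and fell by 0.92 with TYA-018 against vehicle (edgeR adjusted p = 0.0355). Without V2523 the second was not past the threshold (-0.78, adjusted p = 0.0756). No gene of the list passed in that comparison in 10 of 38 fits leaving out a library, V2523 included. Nor did any with the stricter filter or with only the 2 groups. Atf4 itself was not called, with medians of 44.7, 57.2, 46.1 and 49.0 TPM in the order above. In HFpEF+Veh against non_failing 2 of 18 were past the threshold, Atf5 and Gdf15 (11.1%, beside 3.15% of all genes), again as a description. The list counted 1 call in HFpEF+TYA-018 and 1 in HFpEF+SGLT2i (5.56%, beside 7.39% and 6.45%), 1 with TYA-018 against vehicle (5.56%, beside 1.93%), and 0 of 18 by edgeR in the other 2 comparisons, with 4 and 3 at an unadjusted p under 0.05, and 0 by DESeq2 and by limma in both.

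The genes nearest to Gcat in the pattern of group means were, of 11121 compared, Ndrg4 at a distance of 0.0832, Pde1c at 0.169, Lrrc15 at 0.198, Mylk4 at 0.211 and Gm14387 at 0.212. The distance is Euclidean over the 4 centred group means in log2 CPM. Ndrg4 stood at 0.68 in non_failing and -0.41 in HFpEF+Veh, beside 0.74 and -0.40 for Gcat.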

How the data were processed

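RNA of 38 left ventricles was captured by poly(A) selection and sequenced with a stranded kit. The authors trimmed reads with fastp, quantified GRCm38 transcripts with Salmon 1.6.0 and collapsed them per gene using tximport. Expected counts, as deposited, are estimated read numbers per gene, the deposited TPM values are scaled per length and library by the authors, and a deposited table gives effective lengths in bases. Counts were rounded. Genes passing filterByExpr (13765) were fitted with the edgeR 4.0.16 quasi-likelihood test in 1 model of 4 groups with TMM factors, and p-values were adjusted by Benjamini-Hochberg over all genes. Calls required an adjusted p under 0.05. DESeq2 1.42.0 and limma 3.58.1 on log2(TPM + 1) were alternatives, with other scalings and filters and with each library left out. Pair correlations used log2 CPM (prior count 2) with 100000 permutations within groups. Named genes are the 10 members, called list genes and the 5 genes nearest to Gcat. Atf4 was named as the list's head. The members and lists were chosen with earlier results of these data known. Scripts were tested on simulated data. Mouse numbers are not shared between groups. The labels list build hg38, the methods GRCm38. The p-values of the fits set differences between groups against the spread between mice. Unmapped columns numbered 0.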

Additional observations from a re-analysis of the deposited data

Results flagged for a closer look

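Of 18 groups of 8 libraries whose TPM values could be screened for a library far from the rest, 1 had one, and chance gives about 1 in 20. Shmt1 in HFpEF+Veh V2523 was 5.28 TPM, with 3.43 TPM as the next highest vehicle library. The gap was 0.569 of the group's range, above the limit of 0.526. This library held 3416 CPM of hepatocyte markers. Its part in the Shmt1 value was not tested. Groups of 11 were not screened.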

How the results depend on the processing

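The higher Mthfd2 of both drug groups against non_failing was called under every alternative run. All of these runs used control hearts that entered the choice of genes, so they are not independent of it. The count of called members with TYA-018 against vehicle was 0 to 1 over the 38 fits leaving out a library. It was 1 without V2523, where 190 of 13765 genes were called. Against non_failing the count was 2 to 4 with empagliflozin (main 3, Gcat included). It was 4 with DESeq2 (1129 of 13765 genes called) and without V2523 (947 genes called). It was 2 with library size alone (657 genes called) and with no filter (907 of 21871 genes called). With TYA-018 it was 3 in place of 2 without V2507, where 810 of 13765 genes were called. The cause of the changes below was not tested. No paired analysis was possible because mouse numbers are not shared between groups. Counts of Tdh, Phgdh and Mthfd1l were at most 1, 106 and 146, and whether depth limits these genes was not tested.

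Calls in the serine and folate list were 0 in place of 1 for vehicle against non_failing with library size alone and with a length offset, and 0 to 6 with a library left out (6 without V2523). With TYA-018 against vehicle they were 0 with limma, 4 with library size alone, 5 with no filter, 0 with the stricter filter, and 1 to 2 with a library left out (main 1). With empagliflozin against vehicle they were 0 with DESeq2, limma, the stricter filter and only the 2 groups, 3 with no filter, and 0 to 1 with a library left out, 0 without V2523 (main 1). Against non_failing they were 3 in place of 6 with limma for TYA-018 and 5 in place of 3 with no filter for empagliflozin.

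Calls in the ATF4 list were 1 in place of 2 for vehicle against non_failing with only the 2 groups, and 1 to 2 with a library left out. With TYA-018 against vehicle they were 2 with library size alone, 0 with the stricter filter and 0 with only the 2 groups, and 0 to 1 with a library left out, V2523 among the 10 that gave 0 (main 1). With empagliflozin against vehicle they were 0 to 1 (1 without V2521, main 0). Against non_failing they were 0 in place of 1 with limma for TYA-018. For empagliflozin they were 3 with DESeq2, 2 with no filter, 2 with a length offset and 2 with only the 2 groups, and 1 to 2 with a library left out (main 1).

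The log2 fold changes of members that changed sign were uncalled. With limma on log2(TPM + 1) they were -0.025 for Phgdh, -0.154 for Psat1 with TYA-018 against vehicle, -0.0336 for Psat1 and -0.0389 for Psph with empagliflozin against vehicle, 0.00402 for Psph with TYA-018 and -0.0157 for Mthfd1 with empagliflozin against non_failing. With library size alone, where the median of all genes was -0.137 with TYA-018 against vehicle (main -0.00877), they were -0.0258 for Phgdh and -0.0916 for Psat1 with TYA-018 against vehicle, -0.0471 for Psph with empagliflozin against vehicle, -0.00243 for Shmt1 with empagliflozin and -0.0054 for Mthfd1l with TYA-018 against non_failing, and -0.0192 for Shmt2 between the drugs. With a length offset they were -0.0757 for Psat1 with TYA-018 against vehicle and 0.0194 for Psph with TYA-018 against non_failing. For Shmt1 with empagliflozin against non_failing they were -0.0018 with DESeq2, -0.00378 with RLE factors and -0.00391 with the stricter filter. The correlation of Mthfd2 with Mthfd1l, -0.023, was 0.0725 without the 2 farthest libraries and 0.00629 without V2523. Uncalled genes of the serine and folate list turned by more without V2523, among them Bhmt for vehicle against non_failing (1.41 to -2.38) and, with TYA-018 against vehicle, Pipox (-1.13 to 0.54), Gnmt (-1.01 to 0.08) and Cth (-0.77 to 0.205).

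With a library left out, the ranges that crossed 0 were -0.0171 to 0.0834 for Psat1 with TYA-018 against vehicle, -0.0237 to 0.0719 for Psph and -0.638 to 0.212 for Mthfd1 with empagliflozin against vehicle, and -0.159 to 0.264 for Shmt2 between the drugs. Against non_failing they were -0.0895 to 0.0222 for Psph and -0.0819 to 0.305 for Mthfd1l with TYA-018, and -0.00146 to 0.11 for Psph, -0.0523 to 0.0608 for Shmt1, -0.0152 to 0.367 for Shmt2 and -0.295 to 0.456 for Mthfd1 with empagliflozin.

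Calls over all genes changed by over 1.5 times in these settings. With TYA-018 against vehicle (266) they were 402 with DESeq2, 42 with limma, 1096 with library size alone, 618 with no filter, 99 with the stricter filter, 168 with only the 2 groups, 152 without V2530 and 177 without V2547. With empagliflozin against vehicle (117) they were 0 with limma, 457 with no filter, 3 with the stricter filter, 3 with only the 2 groups and 2 without V2523. Between the drugs (0) they were 185 with DESeq2, 5 with a length offset and at most 17 with a library left out. Against non_failing they were 597 with TYA-018 (1017) and 527 with empagliflozin (888) with limma, and 287 for vehicle (433) without V2530. Of the called genes with TYA-018 against vehicle 43.2% were higher, against 54% with DESeq2, 7.14% with limma, 2.28% with library size alone, 20.4% with no filter, 62.6% with the stricter filter, 63.7% without V2523 and 25% without V2530. With library size alone the share was 79.5% in place of 56.1% for vehicle and 28.5% in place of 54.2% for TYA-018 against non_failing, and 2.68% in place of 15.4% for empagliflozin against vehicle. For empagliflozin against vehicle it was also 29.6% with DESeq2, 8.1% with no filter, 33.3% (of 3) with the stricter filter, 100% (of 3) with only the 2 groups, and from 9.35% without V2529 to 26.3% without V2571 apart from V2523. Without V2523 it was 45.6% for vehicle against non_failing, and both genes called with empagliflozin against vehicle were higher.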
